A study of Rattus norvegicus with 6 samples.

Results

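The genes of glycolysis and the pentose phosphate pathway were examined in rat bone marrow mesenchymal stem cells (BMSCs) that received ginsenoside Rb1, a saponin of ginseng root. The set held 32 genes listed by symbol, from glucose uptake to lactate export, with pyruvate dehydrogenase and the pentose phosphate enzymes added, and it included Gapdh, the reference gene of the study's qRT-PCR. Of these 32 genes, 31 had an entry among the 21797 gene symbols of the expression table. The expression of Pgd, which encodes 6-phosphogluconate dehydrogenase, was not analysed here.

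RNA-seq was performed on 3 libraries of BMSCs given ginsenoside Rb1 and on 3 libraries of BMSCs given the solvent DMSO, and the study asked how Rb1 acts on the gene expression of cells with bone-forming potential. The exposure was 20 µM for 24 h according to the methods. The cells of both groups were primary cultures flushed from the marrow of Sprague–Dawley rats 4 weeks of age and used at passages 2 to 3. The labels give the sex of the animals as female and the methods as male. No source states that replicates were separate animals or cultures. The p-values therefore rest on library-to-library spread alone, and that spread may be technical.

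Glycolysis splits glucose into pyruvate in the cytosol and yields ATP and NADH, and lactate dehydrogenase restores NAD+ by turning pyruvate into lactate. Pyruvate can instead enter the mitochondrion, where the pyruvate dehydrogenase complex makes acetyl-CoA. The pentose phosphate pathway branches off at glucose 6-phosphate and supplies NADPH and ribose 5-phosphate. Mesenchymal stem cells in culture are known to rely strongly on glycolysis, and hypoxia-inducible factors are known activators of most glycolytic genes.

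The DNA upstream of these genes is shown for 4 members whose values are described further on, 3 that were lower and 1 that was higher with Rb1. RefSeq windows of the GRCr8 assembly were matched by symbol for 29 of the 32 members, with 33 windows because some genes have more than 1 start. Slc2a3, Pgk1 and Pgls had no entry. Each run gives the 250 bases before the annotated start, 5′ to 3′ on the strand of the gene. The windows lie at chr4:159652468-159652717 on the minus strand for Gapdh, at chr20:10663715-10663964 on the plus strand for Pfkl, at chr1:250672902-250673151 on the plus strand for Pgam1 and at chrX:38508908-38509157 on the plus strand for Pdha1. Capitals mark GGGCGG (the GC box), CCAAT (the CCAAT box), TATAAA (the TATA box), and the letters ACGTG as well as GCGTG (cores of the hypoxia response element), each searched on both strands, with overlapping matches kept.
Gapdh: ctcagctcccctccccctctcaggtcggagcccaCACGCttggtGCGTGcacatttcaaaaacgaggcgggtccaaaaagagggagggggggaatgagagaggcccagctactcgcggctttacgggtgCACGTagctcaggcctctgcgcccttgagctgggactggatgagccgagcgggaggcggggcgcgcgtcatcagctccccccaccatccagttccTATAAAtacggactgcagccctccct
Pfkl: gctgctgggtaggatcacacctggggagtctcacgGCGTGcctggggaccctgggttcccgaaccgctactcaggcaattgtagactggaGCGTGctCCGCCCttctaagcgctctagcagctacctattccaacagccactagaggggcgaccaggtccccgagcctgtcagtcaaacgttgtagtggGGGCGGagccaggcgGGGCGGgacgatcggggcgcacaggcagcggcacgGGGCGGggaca
Pgam1: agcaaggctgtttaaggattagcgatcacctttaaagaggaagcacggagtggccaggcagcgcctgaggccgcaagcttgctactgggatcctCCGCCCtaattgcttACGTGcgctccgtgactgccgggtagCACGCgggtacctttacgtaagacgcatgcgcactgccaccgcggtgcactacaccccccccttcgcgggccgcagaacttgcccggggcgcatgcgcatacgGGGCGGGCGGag
Pdha1: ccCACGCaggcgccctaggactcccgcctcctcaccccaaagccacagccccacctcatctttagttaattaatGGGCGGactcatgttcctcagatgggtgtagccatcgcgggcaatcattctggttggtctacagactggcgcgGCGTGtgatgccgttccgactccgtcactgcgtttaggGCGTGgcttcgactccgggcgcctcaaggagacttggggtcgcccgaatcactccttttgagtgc

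The TATA box of Gapdh stood close to the start, and 2 of the 29 matched members, Gapdh and Tkt, had TATAAA in the window. This was 6.1% of the member windows, against 12.9% of all windows. GGGCGG was found in 60.6% of the 33 member windows, against 30.5% of all 33469 windows of the same length. ACGTG was found in 36.4% of member windows against 16.6% of all windows, and GCGTG in 42.4% against 25.9%. CCAAT was as common in member windows (33.3%) as in all windows (34.0%). The member windows had a median GC content of 60%, against 51.2% over all windows, and motifs rich in G and C are found more often at such a base composition. Among the windows shown, GGGCGG occurred 4 times in Pfkl, 3 times in Pgam1, once in Pdha1 and not in Gapdh. A match describes the letters only.

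The 6 libraries held between 8197157 and 14177062 fragments each, and expression is given as FPKM, which scales fragments for transcript length and library size. Rb1 replicate 1 had the fewest fragments and stood apart, with a chi-square per degree of freedom of 35.4 and 39.7 against the other 2 Rb1 libraries, while the other pairs within a group lay between 10.8 and 17.9. Mitochondrially encoded genes took 18.1% to 24.8% of the FPKM in Rb1 libraries and 10.2% to 18.5% in DMSO libraries. Of 14 mesenchymal stromal markers, 11 were in the table and all were above 0, with a summed level of 6747 to 8713 FPKM with Rb1 and 9031 to 10095 FPKM with DMSO. Most of that difference came from Col1a1 (1976 to 3829 and 4218 to 4953 FPKM). By value 10 of the 11 markers were lower with Rb1, while Itgb1 was higher in every Rb1 library (561 to 601 and 427 to 457 FPKM). Of 14 macrophage markers, 13 were in the table and all were above 0. Endothelial markers summed to 21.4 to 23.4 FPKM with Rb1 and 32.1 to 49.6 FPKM with DMSO, a difference carried by Egfl7 (14.9 to 16.97 and 23.0 to 39.9 FPKM), Esam (4.40 to 5.004 and 6.59 to 8.41 FPKM) and Tie1 (0.888 to 1.502 and 1.70 to 1.92 FPKM). Kdr reached at most 0.592 FPKM in any library, and Cdh5, Tek and Vwf at most 0.191 FPKM. The part of these shifts in the results was not tested, and in bulk RNA fewer cells of a type and less RNA per cell cannot be told apart.

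Most members were lower with Rb1 by value, while Pdha1 was higher in every Rb1 library. Together the members held 4334, 4317 and 4510 FPKM in the 3 Rb1 libraries, against 5359, 5342 and 4909 FPKM in the 3 DMSO libraries. As a share of the FPKM of genes outside the mitochondrial genome, this was 0.652%, 0.709% and 0.744% with Rb1 and 0.835%, 0.836% and 0.827% with DMSO. The groups did not overlap on either measure, and the exact permutation test gave p = 0.1, the smallest 2-sided value that 3 against 3 allows. Gapdh was not alone in this, since the sum without Gapdh was 3742, 3816 and 3890 FPKM with Rb1 and 4508, 4588 and 4053 FPKM with DMSO. That remaining separation depended on Aldoa, at 574, 587 and 612 FPKM with Rb1 and 850.2, 859 and 789 FPKM with DMSO. With Aldoa left out as well, the summed groups overlap.

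Of the 31 members in the table, 29 reached 1 FPKM in at least 3 libraries and were tested with limma over all 10781 genes that did so. No member passed an adjusted p of 0.05, a threshold that 0.0186% of all genes passed. At an unadjusted p under 0.05, 6 members were lower (Gapdh, Aldoa, Pfkl, Pgls, Hk3 and Pgam1), and 14.6% of all genes tested were. At the same threshold 1 member was higher (Pdha1), and 8.27% of all genes were. The Rb1 and DMSO values did not overlap for 8 members that were lower, these 6 with Gpi and Tkt, and 20.3% of all genes tested had no overlap in that direction. They did not overlap for 1 member that was higher, against 11.9% of all genes. By value alone 23 of the 29 members (79.3%) were lower with Rb1, against 59.0% of all genes tested, and the median log2 difference was -0.14 for the members and -0.07 for all genes. When libraries were weighted by how closely they followed the fit, 5 members passed an adjusted p of 0.05 (Pdha1 higher, with Pgls, Aldoa, Pfkl and Pgam1 lower), as did 7.42% of all genes. At the unadjusted threshold, 7 members were lower without Rb1 replicate 1, Rpia being the addition, where 15.3% of all genes were, and 1 was higher, where 8.63% of all genes were. The number of lower members was 4 without Rb1 replicate 2 or DMSO replicate 2, and 5 without any 1 of the other libraries. The share of all genes at that threshold was not taken for these fits, so these counts have nothing to be set beside. With each library scaled by its median, the median log2 difference was -0.05 for the members and 0.0017 for all genes.

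**Figure D1:**
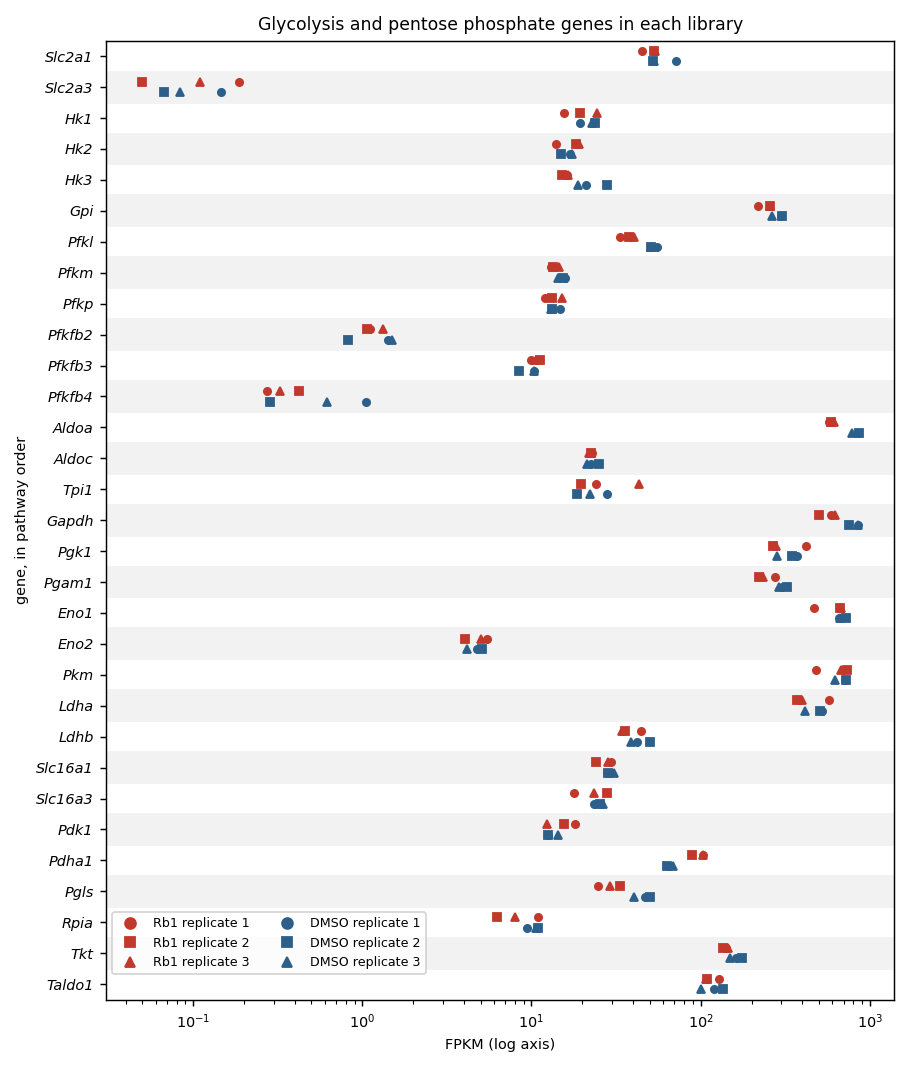
FPKM on a log axis of the 31 members in the table, in pathway order down the page, with the 3 Rb1 libraries (red, upper points of each gene) and the 3 DMSO libraries (blue, lower points). Levels ran from 0.0498 to 0.188 FPKM for Slc2a3 to 574 to 859 FPKM for Aldoa, and the Rb1 and DMSO points were apart for 9 of the tested genes.

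**Figure D2:**
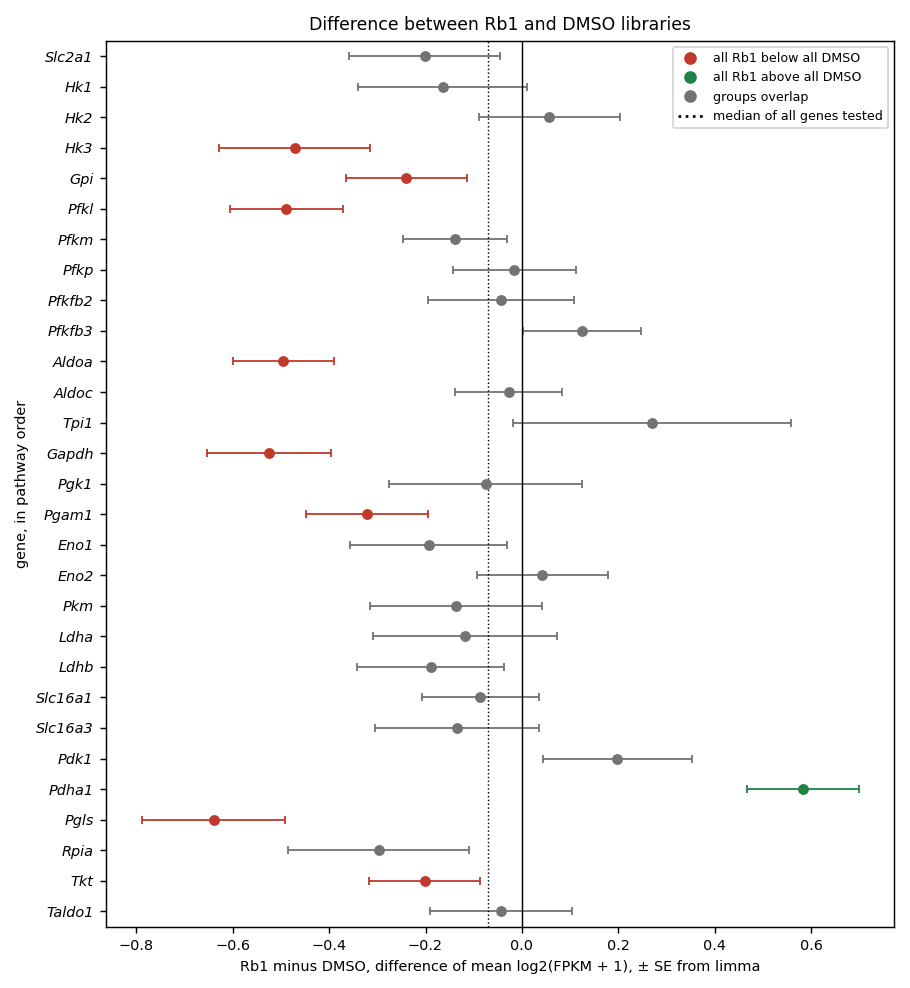
Difference of the mean log2(FPKM + 1), Rb1 minus DMSO, with the SE from limma (n = 3 libraries per group) for the 29 tested members in pathway order. Of these, 23 lie left of 0, the 8 red points mark genes whose Rb1 libraries were all below the DMSO libraries, and the green point is Pdha1.

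Slc2a1 encodes GLUT1, a glucose transporter of most cells, and had 45.0 to 53.4 FPKM with Rb1 and 52.5 to 71.1 FPKM with DMSO. The log2 difference was -0.20 (SE 0.16, limma adjusted p = 0.459), the groups overlapped, and the difference was -0.06 without DMSO replicate 1. Slc2a3, encoding the neuronal transporter GLUT3, was nearly silent at 0.0498 to 0.188 FPKM with Rb1 and 0.0676 to 0.145 FPKM with DMSO, which rested on 1 to 6 fragments per library, and was not tested.

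Hexokinases trap glucose in the cell as glucose 6-phosphate. The ubiquitous form Hk1 (15.6 to 24.4 FPKM with Rb1, 19.4 to 23.7 FPKM with DMSO) and the inducible form Hk2 (14.0 to 19.2 and 15.0 to 17.3 FPKM) overlapped between groups. Hk3, the form known from myeloid cells, had 16.1, 15.1 and 16.4 FPKM in the Rb1 libraries, against 21.1, 28.0 and 19.0 FPKM in the DMSO libraries. All 3 Rb1 values were below the lowest DMSO value, and DMSO replicate 2 was the highest. The log2 difference was -0.47 (SE 0.16, limma adjusted p = 0.156). Macrophage markers were present in both groups, with Cd68 at 174 to 279 FPKM with Rb1 and 262 to 302 FPKM with DMSO, and Csf1r at 23.5 to 27.7 and 28.9 to 33.0 FPKM. The summed macrophage list went the other way from Hk3, at 4162 to 4521 FPKM with Rb1 and 3775 to 3843 FPKM with DMSO, most of it from Lyz2 (3304 to 3729 and 2835 to 2885 FPKM), while 10 of its 13 genes were lower by value. Their part in the Hk3 values was not tested.

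Glucose phosphate isomerase, encoded by Gpi, turns glucose 6-phosphate into fructose 6-phosphate. Gpi had 219, 258 and 258 FPKM with Rb1, against 301, 304 and 263 FPKM with DMSO. The groups were barely apart, the nearest libraries being 258 FPKM with Rb1 and 263 FPKM with DMSO, and the log2 difference was -0.24 (SE 0.13, limma adjusted p = 0.294).

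Phosphofructokinase commits the sugar to glycolysis. Its liver-type subunit Pfkl had 33.4, 37.8 and 40.3 FPKM with Rb1, against 54.9, 51.2 and 51.2 FPKM with DMSO. The highest Rb1 library stayed well below the lowest DMSO library, and the log2 difference was -0.49 (SE 0.12, limma adjusted p = 0.118). The muscle-type subunit Pfkm (13.1 to 14.5 FPKM with Rb1, 14.4 to 15.8 FPKM with DMSO) and the platelet-type subunit Pfkp (11.98 to 15.2 and 13.0 to 14.7 FPKM) overlapped, with log2 differences of -0.14 and -0.02. The bifunctional PFKFB enzymes set the level of fructose 2,6-bisphosphate, the activator of phosphofructokinase. Pfkfb3, the form with the strongest kinase side, had 9.97 to 11.3 FPKM with Rb1 and 8.49 to 10.3 FPKM with DMSO, a log2 difference of 0.12 (SE 0.12, limma adjusted p = 0.562) that was 0.04 without DMSO replicate 2. Pfkfb2 lay near 1 FPKM in both groups, and Pfkfb4 (3 to 7 fragments per library with Rb1, 6 to 16 with DMSO) was too low to be tested.

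Aldolase A cleaves fructose 1,6-bisphosphate, and Aldoa had the highest mean FPKM of all members. It had 574, 587 and 612 FPKM in the Rb1 libraries, against 850.2, 859 and 789 FPKM in the DMSO libraries. The libraries of each group lay close together (SD 19.4 FPKM with Rb1 and 37.9 FPKM with DMSO, n = 3 each), and the gap between groups was several times that spread. The log2 difference was -0.49 (SE 0.11, limma adjusted p = 0.117). Aldoc, the brain-type aldolase, was at 21.98 to 22.9 FPKM with Rb1 and 21.4 to 25.0 FPKM with DMSO.

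Gapdh oxidizes glyceraldehyde 3-phosphate and is the step at which NADH is formed. Its gene (chr4:157676594-157679962 in the deposited table, for which no source names a rat build) had 592, 501 and 619 FPKM with Rb1, against 851, 754 and 856 FPKM with DMSO. Every Rb1 library was below every DMSO library. The mean was 571 ± 62.0 FPKM with Rb1 and 820.2 ± 57.5 FPKM with DMSO (SD, n = 3 each). The log2 difference was -0.53 (SE 0.13), with p = 0.00415 and an adjusted p of 0.118 by limma, and p = 0.1 by the exact permutation test. Leaving out a library in turn, rescaling, another pseudocount or filter, library weights and voom kept Gapdh lower, at log2 differences of -0.59 to -0.43 and limma adjusted p-values of 0.0509 to 0.342. Since the groups did not overlap, only rescaling or voom could have changed this direction.

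In the lower part of glycolysis, Rb1 replicate 1 differed from the other Rb1 libraries more than the groups differed from each other. Pgk1, the first ATP-forming enzyme, had 418, 267 and 279 FPKM with Rb1, against 373, 346 and 283 FPKM with DMSO. Ldha, the main subunit of lactate dehydrogenase, showed the same order with 574, 373 and 396 FPKM with Rb1, against 521, 506 and 412 FPKM with DMSO. For both genes Rb1 replicate 1 was the highest of all 6 libraries and the remaining Rb1 libraries were the lowest 2. Eno1, the ubiquitous enolase, had 471, 664 and 679.7 FPKM with Rb1, against 659, 722 and 668 FPKM with DMSO. Pkm, which encodes the pyruvate kinase of these tissues, had 480.2, 739 and 674 FPKM with Rb1, against 712, 719.6 and 619 FPKM with DMSO. For these genes Rb1 replicate 1 was the lowest library, and none of the 4 passed the test (limma adjusted p = 0.4996 to 0.840). Without Rb1 replicate 1 the log2 difference was -0.28 in place of -0.08 for Pgk1, -0.31 in place of -0.12 for Ldha, -0.02 in place of -0.19 for Eno1 and 0.05 in place of -0.14 for Pkm.

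Pgam1, the phosphoglycerate mutase of most tissues, was apart between groups despite this, with 276, 222 and 234 FPKM with Rb1, against 301, 322 and 289.7 FPKM with DMSO. The log2 difference was -0.32 (SE 0.13, limma adjusted p = 0.194). Eno2, the neuronal enolase, was at 4.07 to 5.48 FPKM with Rb1 and 4.17 to 5.08 FPKM with DMSO. Ldhb, the subunit that favours the oxidation of lactate, had 34.2 to 44.4 FPKM with Rb1 and 38.6 to 50.1 FPKM with DMSO. The lactate exporters overlapped as well, Slc16a1 (MCT1) with 24.1 to 29.6 FPKM with Rb1 and 28.0 to 30.6 FPKM with DMSO, and Slc16a3 (MCT4) with 17.8 to 28.0 and 23.3 to 26.3 FPKM.

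Pdha1, on the X chromosome, encodes the catalytic alpha subunit of pyruvate dehydrogenase, and was the only tested member whose Rb1 libraries were all above the DMSO libraries. It had 103, 88.5 and 104 FPKM with Rb1, against 64.3, 63.1 and 68.3 FPKM with DMSO. The lowest Rb1 library was above the highest DMSO library by more than either group's SD (8.57 FPKM with Rb1, 2.73 FPKM with DMSO, n = 3 each). The log2 difference was 0.58 (SE 0.12, limma adjusted p = 0.117), a fold of 1.497 on the log2(FPKM + 1) scale. Leaving out each library in turn gave log2 differences of 0.54 to 0.66, a range whose sign was fixed by the lack of overlap. The table lists a clone-named gene antisense to Pdha1, and no source states whether strand was used in the counting. Pdk1, the kinase that switches the same complex off, had 12.4 to 18.0 FPKM with Rb1 and 12.4 to 14.4 FPKM with DMSO and overlapped.

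In the pentose phosphate pathway, all 4 tested members were lower with Rb1 by value, where 59.0% of all genes tested were. Of these, 2 had no overlap, where 20.3% of all genes were lower without overlap. The pathway was not lower throughout. Its 7 tested genes outside the set had a median log2 difference of 0.16. Without overlap 3 of them were higher, where 11.9% of all genes tested were, and 1 was lower. Pgls hydrolyses 6-phosphogluconolactone in the oxidative branch. It had 24.7, 33.3 and 29.3 FPKM with Rb1, against 46.9, 50.1 and 40.3 FPKM with DMSO, and had the most negative log2 difference of the 29 tested members, -0.64 (SE 0.15, limma adjusted p = 0.118). Tkt, transketolase of the non-oxidative branch, had 141, 136 and 145 FPKM with Rb1, against 163, 176 and 148 FPKM with DMSO. The highest Rb1 library and the lowest DMSO library nearly met, and the log2 difference was -0.20 (SE 0.11, limma adjusted p = 0.323). Rpia, ribose 5-phosphate isomerase, had 10.9, 6.23 and 7.99 FPKM with Rb1, against 9.40, 10.9 and 10.6 FPKM with DMSO, where only Rb1 replicate 1 reached the DMSO values. Taldo1, transaldolase, had 107 to 128 FPKM with Rb1 and 101 to 136 FPKM with DMSO.

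**Figure D3:**
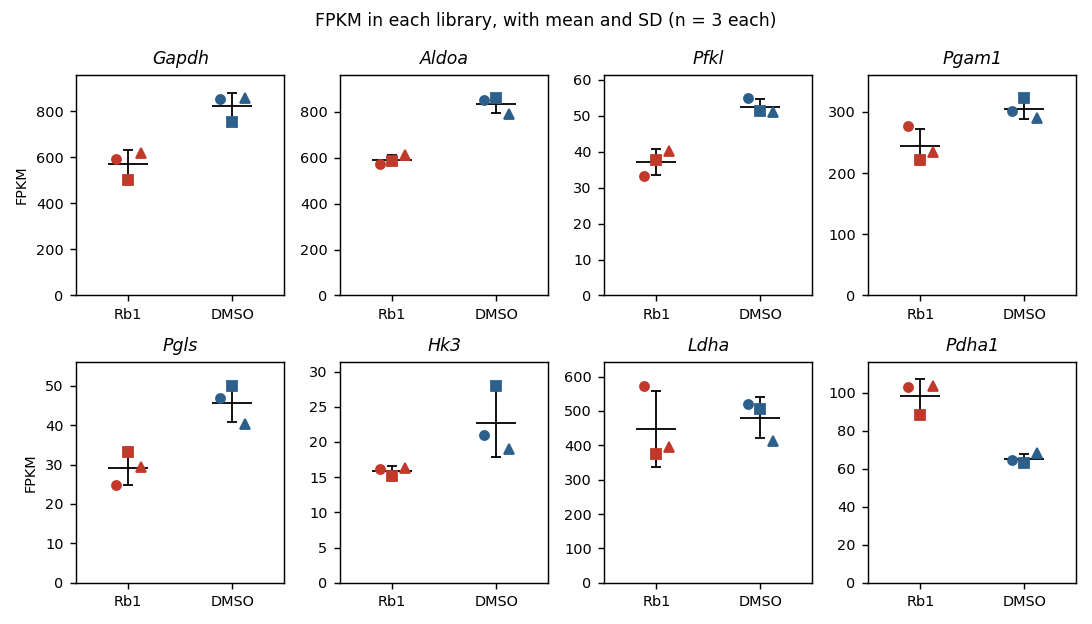
FPKM of 8 members in each library (circle, square and triangle for replicates 1 to 3), with Rb1 left of DMSO and the black lines giving mean and SD (n = 3 each). The groups are apart for 7 of these genes, and for Ldha Rb1 replicate 1 at 574 FPKM is above all DMSO libraries while the other Rb1 libraries are below them.

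Some members share sequence with copies that the counting could have split. The following copies were looked up by their description after the values had been seen. Triosephosphate isomerase was the largest case. Tpi1 on chromosome 4 had 24.1, 19.7 and 43.4 FPKM with Rb1, against 27.9, 18.6 and 22.3 FPKM with DMSO, and a triosephosphate isomerase-like locus on chromosome 9 (LOC100911515) had 106, 70.6 and 40.9 FPKM with Rb1, against 48.7, 76.8 and 46.3 FPKM with DMSO. The copy thus held 48.5% to 81.5% of their sum with Rb1 and 63.5% to 80.5% with DMSO, and the sum had a log2 difference of 0.32 (SE 0.20, limma adjusted p = 0.361). The level of Tpi1 itself is therefore uncertain, and its log2 difference of 0.27 rested on Rb1 replicate 3, without which it was -0.05. A gamma-enolase-like locus (LOC100911625) stands next to that copy on chromosome 9, as Eno2 stands next to Tpi1 on chromosome 4. With it the Eno2 sum had a log2 difference of -0.12, in place of 0.04 for Eno2 alone.

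Among the other members with such copies, the copy held less, apart from Slc2a3. Its copy (LOC100909595) held 31.5% of their sum in Rb1 replicate 1, was at 0 in the other Rb1 libraries and held 49.5% to 73.6% in the DMSO libraries, all of it at under 1 FPKM. A pyruvate kinase-like locus (LOC100362738) held 3.68% to 12.8% of the sum with Pkm with Rb1 and 4.71% to 8.22% with DMSO. The 5 Gapdh-like loci held 0.415% to 0.990% of the sum with Gapdh with Rb1 and 0.473% to 0.494% with DMSO, and the Gapdh sum had a log2 difference of -0.52. Pdha1l1, a copy of Pdha1 on chromosome 16, had 4.92, 3.48 and 5.22 FPKM with Rb1, against 5.45, 5.91 and 5.61 FPKM with DMSO. It was lower in every Rb1 library while Pdha1 was higher, and with it the Pdha1 sum had a log2 difference of 0.53 (SE 0.12, limma adjusted p = 0.117).

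The share of each isoenzyme within its family does not depend on how libraries were scaled. Pfkl supplied 57.1%, 58.6% and 57.5% of the phosphofructokinase FPKM with Rb1, against 64.3%, 64.2% and 65.2% with DMSO. The difference was -6.82 percentage points (exact permutation p = 0.1, and 0.40 after Benjamini-Hochberg adjustment over 8 families). It lay between -7.26 and -6.50 points when each library was left out in turn, a range whose sign was fixed by the lack of overlap. The shares of Pfkm (20.7% to 22.4% with Rb1, 18.3% to 19.2% with DMSO) and Pfkp (20.5% to 21.8% and 16.5% to 17.2%) were both higher with Rb1 without overlap. Shares of a family add up to the whole, so together these restate the lower Pfkl share. In FPKM Pfkm and Pfkp overlapped, with log2 differences of -0.14 and -0.02. Aldoa supplied 96.2% to 96.5% of the aldolase FPKM with Rb1 and 97.2% to 97.4% with DMSO, again without overlap (exact permutation p = 0.1, and 0.40 after the same adjustment). Among the hexokinases the adjustment covered the share of Hk1, which overlapped (exact permutation p = 0.6, and 0.69 after the same adjustment). The share of Hk3 overlapped as well. Hk2, whose share was not part of that adjustment, supplied 30.6% to 34.8% with Rb1 and 22.5% to 29.3% with DMSO. In FPKM Hk2 itself overlapped between groups. Ldha made up 91.2% to 92.8% of lactate dehydrogenase with Rb1 and 91.0% to 92.5% with DMSO, and no separation was seen for the enolases, the glucose transporters, the PFKFB enzymes or the lactate exporters.

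**Figure D4:**
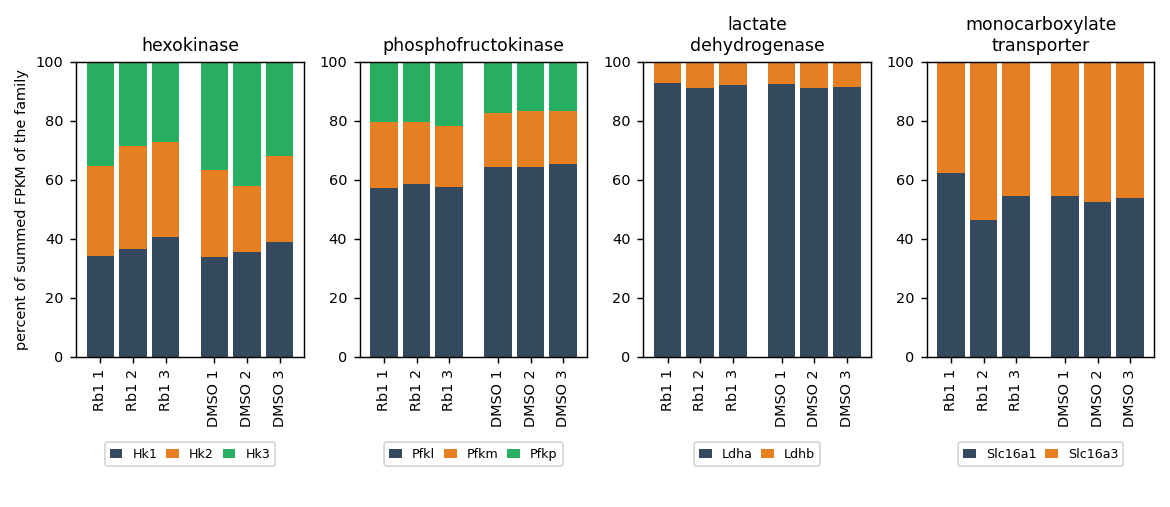
Percent of the summed FPKM of each family (vertical axis) taken by each isoenzyme in each library, Rb1 libraries left of DMSO libraries. The Pfkl share of phosphofructokinase lies at 57.1% to 58.6% with Rb1 and 64.2% to 65.2% with DMSO, while the lactate dehydrogenase shares overlap and Rb1 replicates 1 and 2 are the extremes for the lactate exporters.

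Gapdh served as the reference gene of the qRT-PCR in this study, so its spread was set beside 16 other genes in common use for that purpose. The qRT-PCR of Rb1-treated cells was done after days of exposure and at several doses. These libraries are from 24 h at 20 µM only, so they do not give the level of Gapdh in the qRT-PCR samples. Over the 6 libraries the coefficient of variation of Gapdh was 21.1%, the others ran from 5.43% (Sdha) to 63.7% (Hprt1, at 0.448 to 3.72 FPKM) with a median of 16.9%, and 62.5% of all genes tested had a lower value than Gapdh. Gapdh was 1 of 4 genes among these 17 whose groups did not overlap, 2 of them lower and 2 higher, where 20.3% of all genes tested were lower and 11.9% higher without overlap. B2m was higher with Rb1 (1216, 1476 and 1295 FPKM, against 939, 983 and 993 FPKM with DMSO), as was Tbp (11.9, 10.8 and 12.5, against 8.26, 8.87 and 9.20 FPKM). Rplp0 was lower with Rb1 (2648, 2848 and 2962, against 3910.2, 3789.6 and 3289 FPKM). None of these passed an adjusted p of 0.05 with limma (0.118 to 0.149). Sdha, a subunit of succinate dehydrogenase, had 46.5 to 49.6 FPKM with Rb1 and 46.2 to 52.9 FPKM with DMSO.

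**Figure D5:**
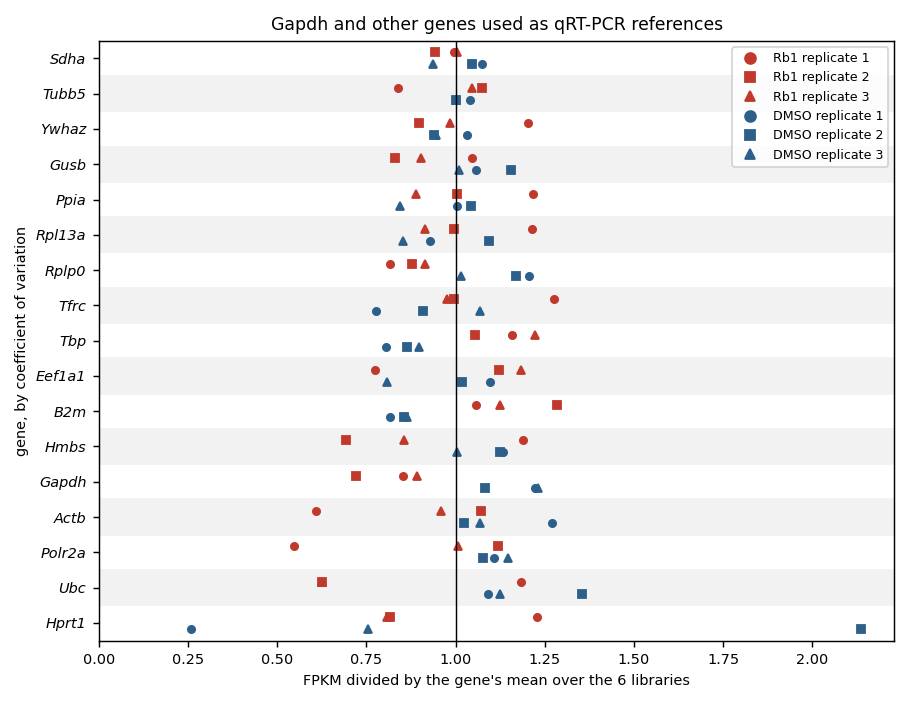
FPKM divided by the mean of the gene over the 6 libraries, for Gapdh and 16 other reference genes ordered by coefficient of variation (Sdha at 5.43% on top, Hprt1 at 63.7% at the bottom), with Rb1 in red above DMSO in blue. All 3 Gapdh points of Rb1 lie left of 1 and all 3 of DMSO right of 1, and points with the same value cover each other.

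Given per Gapdh, the picture of the other genes turned round. Of the 28 other tested members, 12 were higher with Rb1 per Gapdh without overlap and none was lower, where 50.5% of all genes tested were higher without overlap. Pdha1 stood at 17.4%, 17.7% and 16.8% of Gapdh with Rb1, against 7.56%, 8.37% and 7.99% with DMSO, and Hk2 at 2.36%, 3.66% and 3.10%, against 1.97%, 1.99% and 2.02%. Aldoa kept a near constant ratio to Gapdh, at 96.8% to 117% with Rb1 and 92.3% to 114% with DMSO. In a limma fit on values per Gapdh, 8 members passed an adjusted p of 0.05, all higher, and so did 32.8% of all genes. The median log2 difference of all genes was 0.38 in that fit, a shift of 0.45, and that of the members was 0.35. Of the 16 other reference genes, 8 were higher per Gapdh without overlap.

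Genes of the same pathways outside the set were counted beside the members. Of 58 such genes, 56 were in the table and 38 were tested, of which 7 (18.4%) were higher and 4 (10.5%) lower at an unadjusted limma p below 0.05, against 8.27% and 14.6% of all genes, none passed an adjusted p of 0.05, and the group had a median log2 difference of 0.03. Slc2a8 (GLUT8, an intracellular glucose transporter) had 7.52, 5.37 and 7.08 FPKM with Rb1, against 11.3, 11.7 and 11.9 FPKM with DMSO, a log2 difference of -0.73 (SE 0.14, limma adjusted p = 0.117). Slc16a7 (MCT2) was higher by 0.46 on the log2 scale, Pdp1, the phosphatase that activates pyruvate dehydrogenase, by 0.40, Pgm2 by 0.39 and Prps2, a phosphoribosyl pyrophosphate synthetase, by 0.47, each without overlap (limma adjusted p = 0.149 to 0.157).

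The remaining genes lower at that threshold were H6pd (a pentose phosphate enzyme of the endoplasmic reticulum, -0.41), Slc2a6 (-0.34) and G6pc3 (-0.39), which were named after their values had been seen. So was Mpc1, a subunit of the mitochondrial pyruvate carrier, with 85.5, 53.7 and 57.4 FPKM with Rb1, against 42.5, 47.6 and 44.9 FPKM with DMSO (log2 difference 0.50, limma adjusted p = 0.178). Its partner Mpc2 had 86.2, 45.4 and 48.1 FPKM with Rb1, against 62.3, 79.9 and 65.1 FPKM with DMSO and overlapped. Among 13 tested regulators, 2 were lower at an unadjusted p under 0.05, a share of 15.4% near the 14.6% of all genes, and none was higher. Esrra, the estrogen-related receptor that drives genes of energy metabolism, had 13.8, 18.6 and 16.2 FPKM with Rb1, against 25.0, 25.1 and 20.9 FPKM with DMSO (log2 difference -0.52, limma adjusted p = 0.126). Epas1, which encodes HIF-2 alpha, had 31.5, 33.1 and 39.4 FPKM with Rb1, against 50.2, 42.1 and 49.1 FPKM with DMSO (-0.43, limma adjusted p = 0.143). Hif1a, encoding HIF-1 alpha, which is controlled largely at the protein level, had 69.0 to 78.7 FPKM with Rb1 and 64.6 to 82.1 FPKM with DMSO.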

How the data were processed

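RNA-seq libraries of rRNA-depleted total RNA were prepared with a stranded kit from 3 Rb1 and 3 DMSO samples. CASAVA 1.8 and HISAT2 (version not stated) are listed in the submitters' processing notes. The same notes give the human build hg19, although identifiers and chromosomes are those of the rat. No source names the counting program. The authors deposited FPKM values per library for 22062 protein-coding entries, and a signal headed as counts, which is fragment counts times 1 factor per library. Dividing by that factor gave whole fragments within 0.05 for 98.7% to 99.4% of the values, and the remainder may be estimates that split fragments. All value columns matched a sample.

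FPKM of entries with the same symbol were summed (233 symbols). The 10781 genes that reached 1 FPKM in 3 or more libraries were tested on log2(FPKM + 1) with limma 3.58.1 in R 4.3.3 (lmFit and eBayes, group only, 2-sided), with Benjamini-Hochberg adjustment over all of them. This scale understates the change of low genes. The fit was tested on simulated data. Single values were compared by exact 2-sided permutation tests (scipy 1.17.1), and the alternatives covered pseudocount, filter, scaling, variance model, library weights, summing, replicate block and leaving out each library. Voom and the adding of copies were chosen after seeing the data.

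All 32 members are named, and of other lists genes with an unadjusted p under 0.05, up to the 5 with the smallest p per list, with reference genes and defining markers. One gene that this rule names is not reported here. The members and lists were chosen with earlier results of these data known. Upstream sequences are RefSeq's of GRCr8, and coordinates of the deposited table were not mixed with them.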

Additional observations from a re-analysis of the deposited data

How the results depend on the processing

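Of 555 values of single members under 20 alternatives, 494 kept their direction and their side of an adjusted p of 0.05, 50 changed direction and 13 passed that threshold, 2 of which (Pfkp and Slc16a1 per Gapdh) also changed direction. With values per Gapdh the median log2 difference of the members was 0.35, where 11 members were higher and 0 were lower at an unadjusted p under 0.05 and 8 passed at an adjusted p under 0.05. In the same fit 5013 of all 10781 genes were higher and 38 lower at the unadjusted threshold, and 32.8% passed the adjusted one. The log2 differences that turned were then 0.31 for Slc2a1, 0.34 for Hk1, 0.027 for Hk3, 0.28 for Gpi, 0.026 for Pfkl, 0.35 for Pfkm, 0.47 for Pfkp, 0.25 for Pfkfb2, 0.030 for Aldoa, 0.48 for Aldoc, 0.45 for Pgk1, 0.20 for Pgam1, 0.33 for Eno1, 0.39 for Pkm, 0.41 for Ldha, 0.32 for Ldhb, 0.42 for Slc16a1, 0.37 for Slc16a3, 0.18 for Rpia, 0.32 for Tkt and 0.48 for Taldo1, which follows from dividing by a gene that was itself lower with Rb1. Library weights gave Rb1 replicate 1 a weight of 0.218, against 0.879 to 2.46 for the other libraries, and 5 members then passed an adjusted p of 0.05 by limma (Pdha1 higher by 0.61, Pgls -0.61, Aldoa -0.47, Pfkl -0.41 and Pgam1 -0.39), as did 7.42% of all genes, while Hk1 (0.021), Pfkp (0.090) and Pfkfb2 (0.051) turned. Quantile normalization turned Pfkp (0.040), Pfkfb2 (0.055) and Aldoc (0.028), and scaling by the median turned Pfkp (0.062), Pfkfb2 (0.00078), Aldoc (0.053), Pgk1 (0.0083) and Taldo1 (0.039). Adding the copy turned Eno2 (-0.12).

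Leaving out 1 library at a time turned Hk2 (-0.025 to 0.19), Pfkp (-0.10 to 0.061), Pfkfb2 (-0.19 to 0.041), Aldoc (-0.076 to 0.033), Tpi1 (-0.050 to 0.50), Pgk1 (-0.28 to 0.043), Eno2 (-0.034 to 0.14), Pkm (-0.26 to 0.048), Slc16a3 (-0.28 to 0.033) and Taldo1 (-0.16 to 0.058). The 9 members whose groups did not overlap kept their direction under every alternative other than values per Gapdh. Leaving out a library, another pseudocount or filter, library weights and the replicate block cannot reverse groups that do not overlap. For these 9 members such alternatives therefore do not test the direction. Across all genes, 2 passed an adjusted p of 0.05, against 1 with a mean FPKM of at least 5, with median scaling or without mitochondrial genes in the total, 3538 per Gapdh, 800 with library weights, 0 with voom and 0 to 4 when a library was left out. With the replicate block 0 genes passed, 5 members were lower at an unadjusted p under 0.05 and Gapdh had a limma adjusted p of 0.221. The share of all genes at the unadjusted threshold was not taken for that fit. The deviations of libraries with the same number had correlations of -0.0038, -0.042 and 0.16, the last above the set threshold of 0.1. Between libraries with unlike numbers they ran from -0.17 to 0.15. The cause of the other changes was not tested.

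The edgeR and DESeq2 alternatives were not run, because the deposited counts are scaled. At 8197157 to 14177062 fragments, a member near 1 FPKM such as Pfkfb2 rests on 22 to 54 fragments, and a count of 0 allows up to 3 fragments, by counting error alone. With 3 libraries per group an exact test cannot go below 0.1.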
